A study of Mus musculus with 151 samples.

Results

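Voltage-gated calcium channels couple depolarisation of a hair cell to transmitter release at its ribbon synapses, and 10 genes for their subunits and modulators were followed here in single cochlear cells. The 10 were listed by function and found by symbol among the 55291 genes of the count table: the pore genes *Cacna1d* and *Cacna1c*, the beta subunit genes *Cacnb2* and *Cacnb3*, the alpha2delta subunit genes *Cacna2d1*, *Cacna2d2* and *Cacna2d4*, and the genes *Cabp1*, *Cabp2* and *Cabp4* for calcium-binding proteins (CaBPs) of the calmodulin family. In such a channel the pore-forming subunit passes the current, a cytosolic beta subunit carries it to the membrane and shapes its gating, and an extracellular alpha2delta subunit sets how many channels reach the synapse. Calmodulin closes the channel once calcium has entered, and CaBPs compete with calmodulin and so slow this inactivation. In inner hair cells (IHCs), the sensory cells that drive the auditory nerve, the L-type pore encoded by *Cacna1d* carries most of the calcium current. Outer hair cells (OHCs), which amplify sound by changing length, form fewer ribbon synapses.

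The 151 libraries, each of 1 hand-picked cell, were 55 P14_WT IHCs, 46 P14_iOHCs and 50 P30_WT IHCs, named for the postnatal day of the C57BL/6 mice. Both WT groups came from vGlut3-P2A-iCreER/+; Ai9/+ mice and thus carried the Cre allele and the Tdtomato reporter. Tdtomato marks cells in which tamoxifen had activated iCreER, and the study describes tamoxifen in the first days after birth for the P30_WT mice too. The P14_iOHCs (induced OHCs) came from vGlut3-P2A-iCreER/+; Tbx2 flox/-; Ai9/+ mice, in which 1 *Tbx2* allele was lost in the germ line and tamoxifen after birth removed the floxed allele in cells that use the *Slc17a8* locus (which encodes vGlut3). From these mice the smaller Tdtomato+ cells were picked, so that size entered the choice of cells. Counts per gene do not show whether a given cell had lost the floxed part of *Tbx2*. The number of mice is not given in the sources used here, and no label ties a cell to a mouse. Each group therefore stands as 1 sample: values are given with their spread over cells, without a test, and ± denotes the SD over cells.

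Total counts ran from 4326416 to 25035444 per cell, and levels are given as CPM, the count of a gene scaled to a total of 1000000 counts in the cell. Depending on the cell, the upper limit behind a count of 0, taken as 3 counts, was 0.120 to 0.693 CPM. The cells fell in a set of lower totals (16 P14_WT IHCs, 12 P14_iOHCs and 23 P30_WT IHCs) and a set of higher totals (39, 34 and 27 cells). The labels were checked with 3 genes. *Tbx2* averaged 260 ± 127 CPM in the P14_WT IHCs, 69.3 ± 87.4 CPM in the P14_iOHCs and 193 ± 103 CPM in the P30_WT IHCs, and 45 of the 46 P14_iOHCs still had a count. *Slc17a8* averaged 1230 ± 317, 123 ± 194 and 1344 ± 539 CPM in the same order. *Slc26a5*, which encodes the OHC motor protein Prestin, was detected in all 46 P14_iOHCs at 1146 ± 685 CPM and in 2 of 55 P14_WT IHCs and 2 of 50 P30_WT IHCs. Markers of supporting cells, the non-sensory neighbours of hair cells, moved with the groups: 9 of their 12 genes that passed the filter on counts had a mean over 4-fold higher in the P14_iOHCs (8.74% of all genes that passed did), with *Prox1* at 0 in both P14 groups. The summed level of the markers ran from 3800 to 9260 CPM in the P14_WT IHCs and from 2226 to 20380 CPM in the P14_iOHCs. Most of that level came from *Fbxo2*, which had means of 5423 CPM in the P14_WT IHCs and 5465 CPM in the P14_iOHCs. The mean of log2(CPM + 1) over these markers lay above every P14_WT IHC in 17 of the 46 P14_iOHCs. Glial markers had 2 of 3 genes that passed the filter over 4-fold higher in the P14_iOHCs. Their summed level had a median of 49.1 CPM and a maximum of 277 CPM there, against 1.21 and 224 CPM in the P14_WT IHCs. Markers of IHCs had 3 of 4 genes over 4-fold lower and those of OHCs 4 of 4 over 4-fold higher in the P14_iOHCs. Of the general hair cell markers 1 of 5 was over 4-fold lower there, namely *Otof*, which is in the list of IHC markers too. Of the markers of other cells that passed, 0 of 4 for neurons, 1 of 4 for fibroblasts (higher), 0 of 4 for blood and 1 of 1 for immune cells (lower) were past 4-fold there. At P30 the immune gene alone was past 4-fold, and lower. The part of supporting-cell and glial markers in the results was not tested, and for the genes of the 10 that passed the filter the ratio without the 17 cells is given.

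*Cabp2*, *Cacna1d* and *Cacnb2* were detected in nearly every cell of all groups, whereas *Cabp1* and *Cacna2d2*, found in most IHCs, were found in 26.1% and 21.7% of the P14_iOHCs. Of the 10 genes, 7 had a count in at least 50% of the P14_WT IHCs, 5 in at least 50% of the P14_iOHCs and 7 in at least 50% of the P30_WT IHCs. A P14_WT IHC had counts of 6.64 ± 1.16 of the 10 genes, a P14_iOHC of 5.43 ± 1.13 and a P30_WT IHC of 6.10 ± 1.40. The ranges overlapped, with 4 to 9, 3 to 8 and 3 to 10 genes per cell. When every cell was thinned to 4326416 counts, the numbers were 7, 5 and 6, as *Cabp4* fell under 50% in the P30_WT IHCs. With at least 5 counts as the limit, they were 7, 5 and 5, without *Cacna2d4* and *Cabp4* in the P30_WT IHCs.

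**Figure D1:**
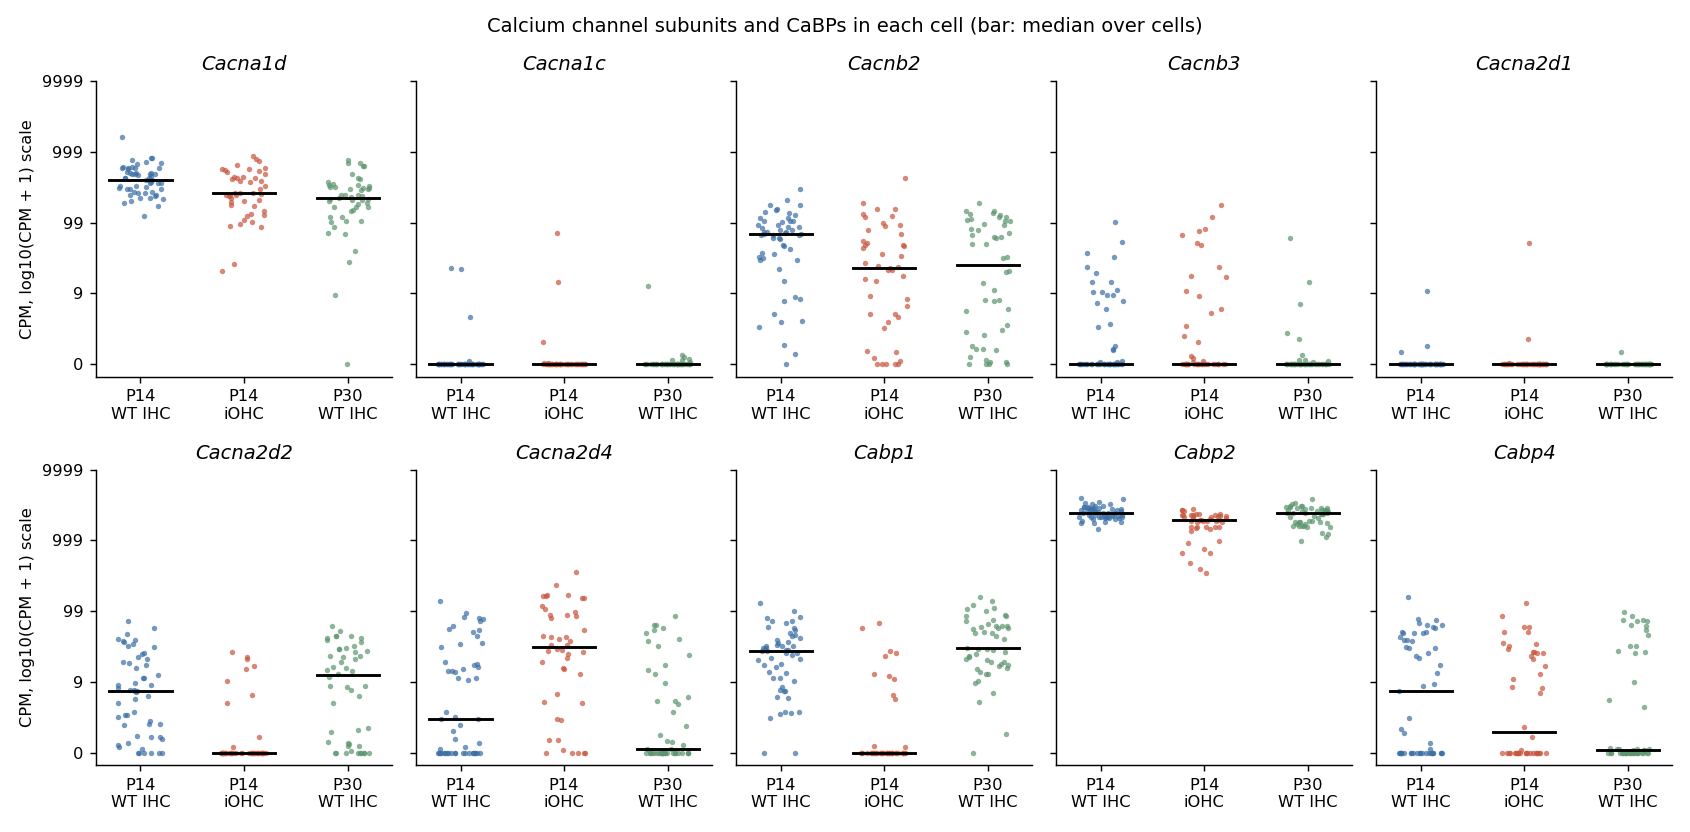
CPM of each gene in each of the 55 P14_WT IHCs, 46 P14_iOHCs and 50 P30_WT IHCs, on a log10(CPM + 1) axis labelled in CPM, with 1 point per cell, points spread sideways for sight and a bar at the median. *Cabp2* has the highest level in every group, the medians of *Cabp1* and *Cacna2d2* lie at 0 in the P14_iOHCs alone, and *Cacna2d4* has its highest median there.

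Levels were compared between genes only as TPM, in which each count is divided by the exon length of the gene before scaling to 1000000 per cell. By mean TPM *Cabp2* stood first in every group, at 4552 ± 964 TPM in the P14_WT IHCs, where it ranked 27 among 53292 genes, at 2929 ± 1034 TPM in the P14_iOHCs (rank 28) and at 3951 ± 1200 TPM in the P30_WT IHCs (rank 26). *Cacna1d* came second in every group, with 85.4 ± 45.2, 57.2 ± 37.7 and 48 ± 33.3 TPM. *Cabp2* stood apart from *Cacna1d* by more than the SD in every group, and *Cacna1d* from the next gene in both P14 groups but not in the P30_WT IHCs. In the P14_WT IHCs *Cabp4* (15.9 ± 22 TPM), *Cacnb2* (13.5 ± 11.2 TPM) and *Cabp1* (12.6 ± 11.3 TPM) followed, and each differed from its neighbour by less than the SD. In the P14_iOHCs the next gene was *Cacna2d4* (14.2 ± 18.7 TPM), which did not differ from the next, *Cabp4* (10.3 ± 16.1 TPM), beyond the SD. In the P30_WT IHCs *Cabp1* (18.1 ± 15.1 TPM) came after *Cacna1d*, within the SD of *Cabp4* (11.2 ± 18.8 TPM). *Cacna1c* and *Cacna2d1* held the last places in every group, each with less than 0.2 TPM.

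*Cacna1d* (ENSMUSG00000015968.17, chr14:30039939-30491455 of GRCm38, minus strand), the pore gene of the IHC channel, was detected in all P14 cells. It ran from 122 to 1593 CPM in the P14_WT IHCs, with a median of 404, from 19.9 to 869 CPM in the P14_iOHCs, with a median of 259, and from 0 to 769 CPM in the P30_WT IHCs, with a median of 223. The groups overlapped widely, and 8 P14_iOHCs and 12 P30_WT IHCs lay below the lowest P14_WT IHC. The means were 442 ± 233, 326 ± 207 and 262 ± 181 CPM, a log2 ratio of -0.44 for P14_iOHCs over P14_WT IHCs and of -0.75 for P30_WT IHCs over P14_WT IHCs, each less than the spread between cells. Without the 17 cells rich in supporting-cell markers the first ratio was -0.28. In pairs of 1 cell from each group, the P14_iOHC had the lower level in 66.5% and the P30_WT IHC in 76.3%. Part of the *Cacna1d* exons, 4.67% of their bases, lies across those of *Chdh* on the other strand, and the strandedness of the counting is not given in the sources used here.

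*Cacna1d* was also almost the whole of the pore family. Over the 10 pore genes of the genome it made up 99.3% of the mean TPM in the P14_WT IHCs, 98.7% in the P14_iOHCs and 98.1% in the P30_WT IHCs. *Cacna1c* (chr6:118587240-119196418), the cardiac and neuronal L-type pore, was found in 4, 5 and 7 cells of the 3 groups, in the same order, and 1 P14_iOHC at 71.2 CPM held 82.8% of its level in that group. The other pore genes ranged from no cell to 9 cells per group. *Cacna1f*, the L-type pore of photoreceptors, was found in 3, 2 and 1 cells.

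Among the beta subunits, *Cacnb2* (ENSMUSG00000057914.15, chr2:14603088-14987908, plus strand), which hair cells need for normal calcium currents, was the main gene of both IHC groups. It was detected in 54 of 55 P14_WT IHCs, 41 of 46 P14_iOHCs and 46 of 50 P30_WT IHCs. Its level ran from 0 to 300.2 CPM in the P14_WT IHCs, with a median of 67.4, from 0 to 418 CPM in the P14_iOHCs, with a median of 21.9, and from 0 to 189 CPM in the P30_WT IHCs, with a median of 24.8. Most cells of every group lay in a shared range, and the lower medians came with more cells near 0. The means of 72.5 ± 59.4, 49.5 ± 74.0 and 49.3 ± 53.6 CPM gave log2 ratios of -0.55 and -0.56 against the P14_WT IHCs, each within the spread between cells, and the first was -0.26 without the 17 cells. On the other strand its exons share 4.67% of their bases with *Gm10849*, 1.81% with *Gm13269* and 0.84% with *Gm10848*.

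*Cacnb3* (chr15:98630840-98644529), a beta subunit of many neurons, was absent from more than 50% of the cells of each group, with counts in 24 P14_WT IHCs, 21 P14_iOHCs and 10 P30_WT IHCs. Where present it reached 99.3, 177 and 59.4 CPM. The shares of cells with a count were close in the P14 groups (43.6% and 45.7%, exact 95% binomial intervals 30.3% to 57.7% and 30.9% to 61.0%) and lower in the P30_WT IHCs (20.0%, 10.0% to 33.7%). Its mean was 15.2 ± 35.6 CPM in the P14_iOHCs against 6.50 ± 16.3 CPM in the P14_WT IHCs, a log2 ratio of 1.23 and a gap smaller than the SD of either group. The P14_iOHC was the higher cell in 37.1% of pairs and the lower cell in 32.3%. The highest cell held 25.2% of the level of the P14_iOHCs and 27.8% of that of the P14_WT IHCs. In the set of lower totals the log2 ratio was 0.02 and in the set of higher totals 2.07, and without the 17 cells rich in supporting-cell markers it was 0.72.

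Per length, *Cacnb2* made up 69.8% of the mean TPM of the 4 beta subunit genes in the P14_WT IHCs, 46.6% in the P14_iOHCs and 66.9% in the P30_WT IHCs. The shares of *Cacnb3* were 20.8%, 47.7% and 7.46%. *Cacnb4*, which is not among the 10 genes and was picked out after its values were seen, took 25.6% in the P30_WT IHCs and 5.92% in the P14_WT IHCs. With at least 5 counts as the limit, *Cacnb2* alone was found in 34 P14_WT IHCs, 22 P14_iOHCs and 37 P30_WT IHCs, both genes in 20, 15 and 5 cells, *Cacnb3* alone in 1, 2 and 0 cells, and neither in 0, 7 and 8 cells. Most cells with *Cacnb3* had *Cacnb2* too, as did most cells of each group: 54 of 55, 37 of 46 and 42 of 50 had at least 5 counts of *Cacnb2*.

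**Figure D2:**
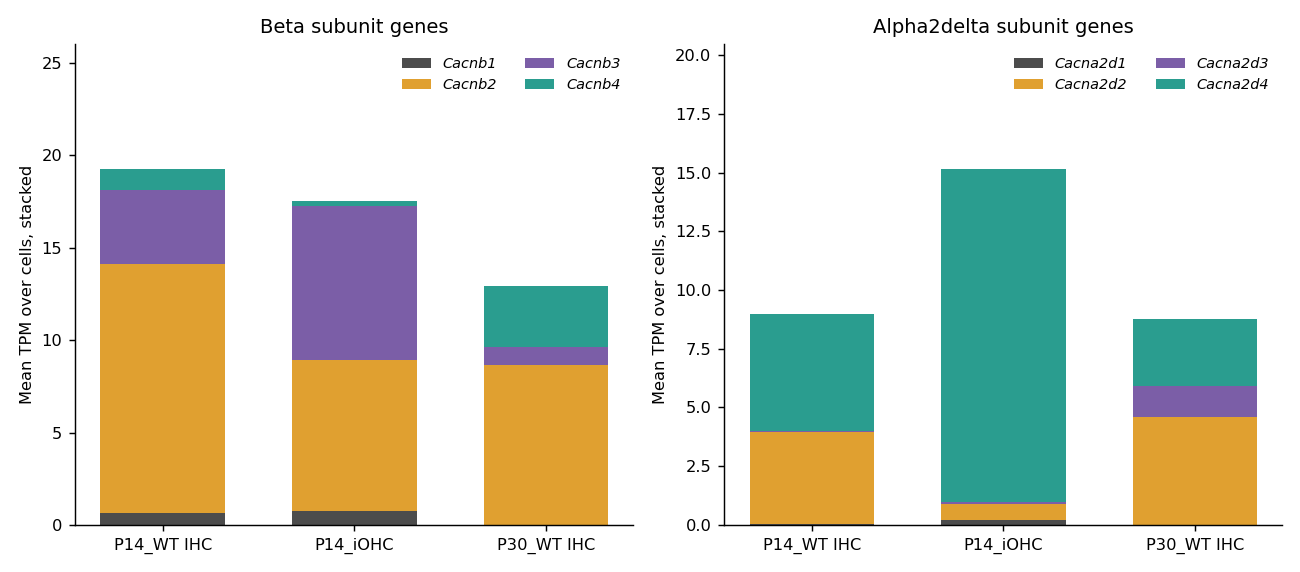
Mean TPM over the cells of each group, stacked by gene, for the 4 beta subunit genes (left) and the 4 alpha2delta subunit genes (right); no error is drawn for the sums. *Cacna2d4* makes up 93.5% of the alpha2delta bar of the P14_iOHCs, against 55.7% in the P14_WT IHCs and 32.4% in the P30_WT IHCs.

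The main alpha2delta genes differed in opposite directions between P14_iOHCs and IHCs. *Cacna2d2*, the subunit known to tie the channels of IHCs to their release sites, had a mean 5.06-fold lower in P14_iOHCs than P14_WT IHCs, whereas *Cacna2d4*, known from photoreceptor ribbon synapses, had a mean 3.10-fold higher.

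*Cacna2d2* (ENSMUSG00000010066.15, chr9:107399612-107529343, plus strand) was detected in 49 of 55 P14_WT IHCs (89.1%, exact interval 77.8% to 95.9%), 10 of 46 P14_iOHCs (21.7%, 10.9% to 36.4%) and 41 of 50 P30_WT IHCs (82.0%, 68.6% to 91.4%). In the P14_WT IHCs it ran from 0 to 70.7 CPM with a median of 6.55, in the P14_iOHCs from 0 to 25.6 CPM with a median of 0, and in the P30_WT IHCs from 0 to 61.3 CPM with a median of 11.4. The 36 P14_iOHCs at 0 overlapped only with the lowest IHCs, and 40 of the 46 lay below the median of the P14_WT IHCs. The means were 12.8 ± 16.1, 2.53 ± 6.33 and 15.9 ± 16.7 CPM, with log2 ratios of -2.34 for the P14_iOHCs and 0.31 for the P30_WT IHCs. Between the P14 groups the gap in means was smaller than the SD of the P14_WT IHCs and larger than that of the P14_iOHCs. The first ratio held at -2.62 and -2.25 in the sets of lower and of higher totals and at -2.19 without the 17 cells rich in supporting-cell markers. Its exons share 1.03% of their bases with *Gm17141* on the other strand.

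*Cacna2d4* (ENSMUSG00000041460.14, chr6:119236526-119352407, plus strand) went the other way. It was detected in 35 of 55 P14_WT IHCs (63.6%, 49.6% to 76.2%), 41 of 46 P14_iOHCs (89.1%, 76.4% to 96.4%) and 26 of 50 P30_WT IHCs (52%, 37.4% to 66.3%). Its level ran up to 140 CPM with a median of 2.04 in the P14_WT IHCs, up to 353 CPM with a median of 30.1 in the P14_iOHCs and up to 83.9 CPM with a median of 0.128 in the P30_WT IHCs. The groups overlapped, 8 P14_iOHCs lay above every P14_WT IHC, and the P14_iOHC was the higher cell in 69.7% of pairs. The means of 19.4 ± 30.7, 60.0 ± 74.7 and 11.5 ± 21.2 CPM gave log2 ratios of 1.63 and -0.75. Between the P14 groups the gap in means was smaller than the SD of the P14_iOHCs and larger than that of the P14_WT IHCs. The ratio of 1.63 was 1.08 and 1.92 in the sets of lower and of higher totals, and 1.95 without the 17 cells.

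*Cacna2d1* (chr5:15934691-16374511), the alpha2delta gene of muscle and of many neurons, was found in 3, 3 and 1 cells, and did not pass the filter on counts. Per length, *Cacna2d4* made up 55.7%, 93.5% and 32.4% of the mean TPM of the 4 alpha2delta genes in P14_WT IHCs, P14_iOHCs and P30_WT IHCs, and *Cacna2d2* made up 43.5%, 4.55% and 52.2%. Their sum was 9, 15.2 and 8.77 TPM with all 4 genes. Within single cells, at least 5 counts of both *Cacna2d2* and *Cacna2d4* were found in 27 of 55 P14_WT IHCs (49.1%, 35.4% to 62.9%), 9 of 46 P14_iOHCs (19.6%, 9.36% to 33.9%) and 16 of 50 P30_WT IHCs (32%, 19.5% to 46.7%). *Cacna2d2* alone was found in 18, 0 and 20 cells and *Cacna2d4* alone in 6, 31 and 5 cells. *Cacna2d4* alone was thus the most frequent state of the P14_iOHCs, at 67.4% (52% to 80.5%), and a rare one in both IHC groups, at 10.9% and 10.0%.

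**Figure D3:**
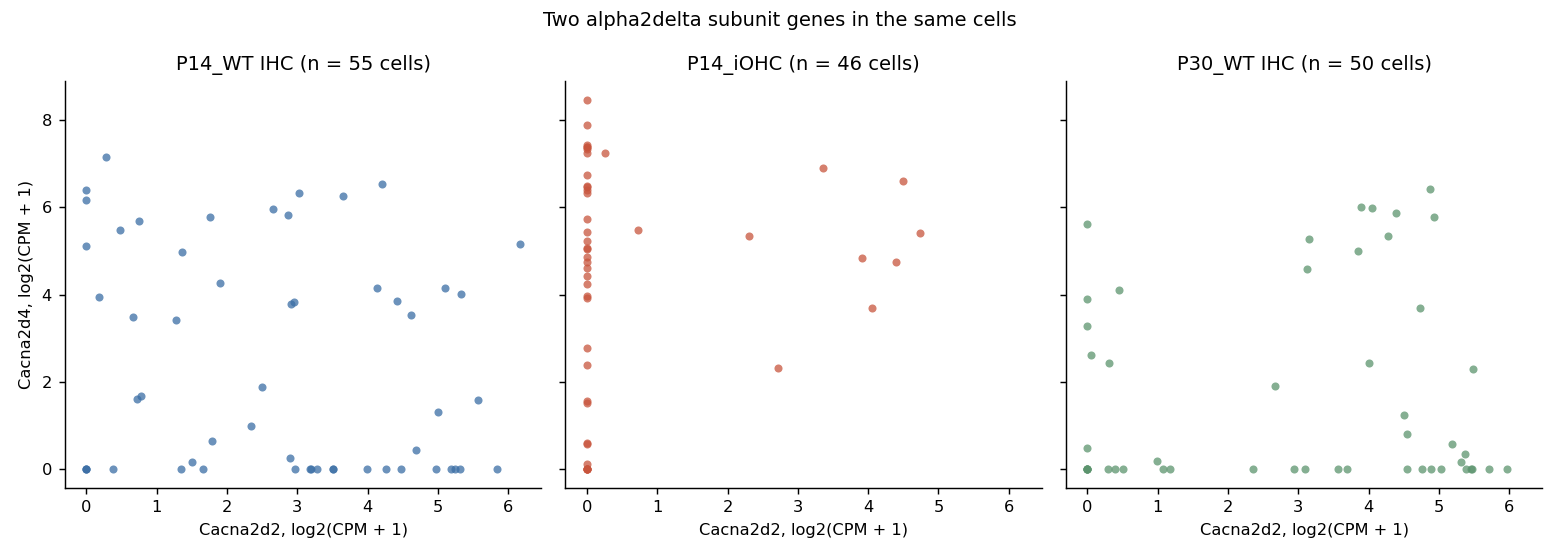
*Cacna2d4* against *Cacna2d2* in each cell, both as log2(CPM + 1), with 1 panel per group and 1 point per cell. In the P14_iOHCs 36 of the 46 points lie on the axis at 0 for *Cacna2d2*, whereas many IHCs of both ages lie on the other axis, at 0 for *Cacna2d4*.

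Among the CaBPs, *Cabp1* had a mean over 4-fold lower in the P14_iOHCs, and *Cabp2* and *Cabp4* had means lower by less than 2-fold. *Cabp1* (ENSMUSG00000029544.16, chr5:115168689-115194381, minus strand), a brake on inactivation of IHC channels, was detected in 53 of 55 P14_WT IHCs (96.4%, 87.5% to 99.6%), 12 of 46 P14_iOHCs (26.1%, 14.3% to 41.1%) and 49 of 50 P30_WT IHCs (98.0%, 89.4% to 99.9%). It ran from 0 to 131 CPM with a median of 26 in the P14_WT IHCs, from 0 to 67.1 CPM with a median of 0 in the P14_iOHCs and from 0 to 157 CPM with a median of 28.9 in the P30_WT IHCs. The high P14_iOHCs overlapped with IHCs, but 43 of the 46 lay below the median of the P14_WT IHCs and 38 below their lower quartile. The means of 30.2 ± 27.1, 5.24 ± 13.9 and 45.3 ± 37.7 CPM gave log2 ratios of -2.53 and 0.58, the first a mean 5.77-fold lower. The first was -1.96 without the 17 cells rich in supporting-cell markers, -1.76 in the set of lower totals and -2.92 in that of higher totals, so that it passed 4-fold in the last of these 3 alone. The gap between the P14 means of *Cabp1* was smaller than the SD of the P14_WT IHCs and larger than that of the P14_iOHCs. Of the 12 P14_iOHCs with *Cabp1* and the 10 with *Cacna2d2*, 3 had both, and 27 of the 46 had neither.

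The 250 bases before the more upstream of the RefSeq starts of *Cabp1* are given here (RefSeq, GRCm38.p6), since *Cabp1* had the lowest ratio of the 8 genes that passed the filter on counts. They are read 5′ to 3′ on the strand of the gene, with capitals for a GC box (GGGCGG, either strand):
Cabp1, upstream start (chr5:115194382-115194631, minus strand): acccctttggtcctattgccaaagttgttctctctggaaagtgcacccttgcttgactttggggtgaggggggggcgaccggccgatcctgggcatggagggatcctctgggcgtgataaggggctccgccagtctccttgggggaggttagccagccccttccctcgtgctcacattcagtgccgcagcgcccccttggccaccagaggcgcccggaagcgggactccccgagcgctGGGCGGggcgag
The GC box was present in 7 of the 15 such windows found for 8 of the 10 genes and in 32.7% of all 32851 promoter windows of the same length. The half-site of T-box factors such as Tbx2 (GGTGTGA, either strand), which does not overlap the GC box in letters, was in 0 of the 15 windows and in 3.33% of all. These are matches of letters and show no binding, and counts per gene do not tell the starts of *Cabp1* apart.

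*Cabp2* (ENSMUSG00000024857.16, chr19:4081578-4087340, plus strand), whose loss impairs hearing in mice and humans, was detected in all 151 cells. It ran from 1473 to 3925 CPM in the P14_WT IHCs with a median of 2462, from 348 to 2783 CPM in the P14_iOHCs with a median of 1948, and from 987 to 3872 CPM in the P30_WT IHCs with a median of 2413. The lower end of the P14_iOHCs stood apart, with 10 cells below the lowest P14_WT IHC, while the upper ends overlapped. Most of these 10 cells were among the 17 rich in supporting-cell markers, and the part of these markers in the low levels was not tested. Of the 46 P14_iOHCs 42 lay below the median of the P14_WT IHCs, and the P14_iOHC was the lower cell in 79.5% of pairs. The means were 2520 ± 526, 1804 ± 640 and 2294 ± 648 CPM, with log2 ratios of -0.48 and -0.14. Over all cells the first gap was larger than the SD of either group and the second was not. The first gap was not set against an SD without the 17 cells rich in supporting-cell markers. The first ratio was -0.27 without the 17 cells, and the second was -0.24 in the set of lower totals, 0.02 in that of higher totals and 0.16 with the size factors of DESeq2. The level went with depth in IHCs: it was 1809 ± 487 CPM in the 23 P30_WT IHCs of lower totals and 2707 ± 453 CPM in the 27 of higher totals, and 2143 ± 435 against 2674 ± 484 CPM in the P14_WT IHCs, but 1820 ± 501 against 1798 ± 689 CPM in the P14_iOHCs.

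*Cabp4* (ENSMUSG00000024842.8, chr19:4135423-4144033, minus strand), needed at photoreceptor synapses and also found in hair cells, was detected in 33 of 55 P14_WT IHCs, 25 of 46 P14_iOHCs and 26 of 50 P30_WT IHCs. Its highest cells had 158, 129 and 97.9 CPM and its medians were 6.53, 0.985 and 0.0807 CPM. The means of 22.4 ± 30.7, 16.6 ± 26.4 and 17.1 ± 28.6 CPM lay within the spread between cells, with log2 ratios of -0.43 and -0.39. The first was -0.63 without the 17 cells and -2.73 by medians. The second was -4.91 by medians, a bound with the P30 median set to the level of 3 counts, and 0.09 with the size factors of DESeq2. Its exons share 3.72% of their bases with *Gpr152* on the other strand. Among the 6 genes for CaBPs and their calneuron relatives, *Cabp2* made up 99.1%, 99.2% and 98.6% of the mean TPM.

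**Figure D4:**
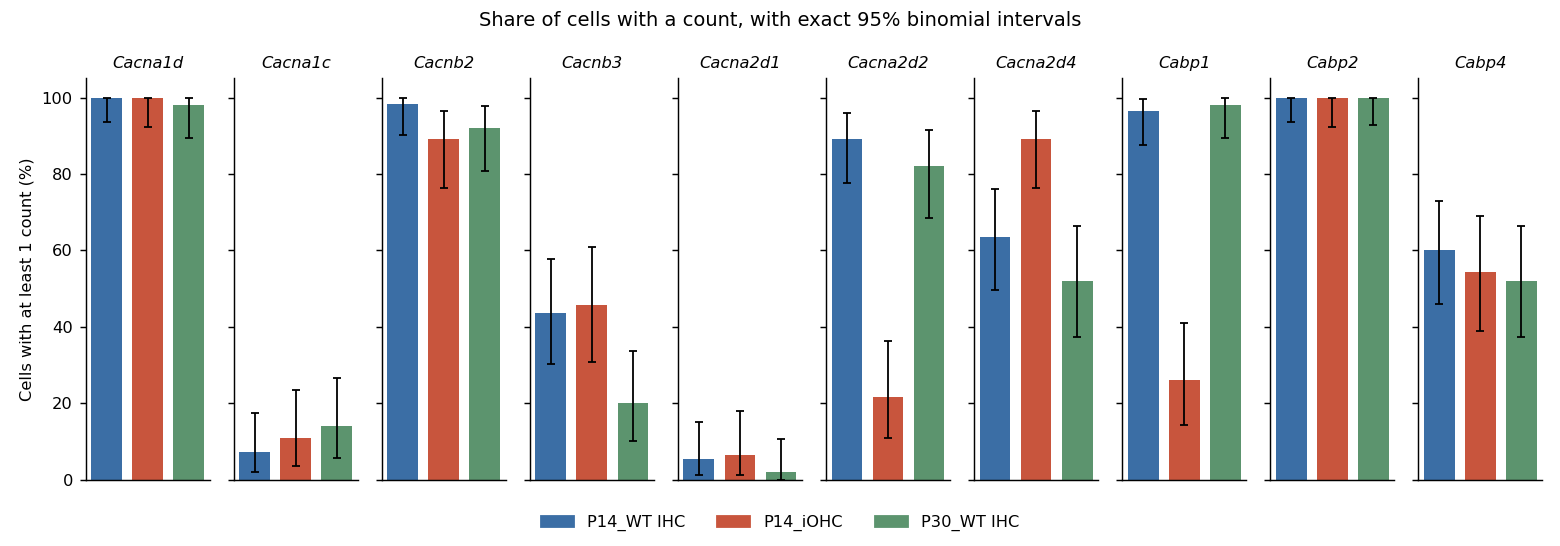
Share of cells with at least 1 count of each gene, in percent, for P14_WT IHCs (55 cells), P14_iOHCs (46 cells) and P30_WT IHCs (50 cells); error bars are exact 95% binomial intervals, which cover counting of cells only. The intervals of the P14_iOHCs lie below those of both IHC groups for *Cacna2d2* (10.9% to 36.4%) and *Cabp1* (14.3% to 41.1%), and narrowly above them for *Cacna2d4* (76.4% to 96.4%).

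P14_iOHCs and P14_WT IHCs differ in *Tbx2* genotype, in the picking of cells by size and in their supporting-cell markers, which the comparison cannot tell apart. In it, 8 of the 10 genes passed a filter of at least 5 counts in at least 10 cells. A mean over 4-fold higher or lower counted as past the threshold. *Cabp1* and *Cacna2d2*, 2 of the 8, were lower past 4-fold, against 5.12% of all 13673 genes that passed the filter, and 0 of the 8 were higher, against 8.74%. Past 2-fold, *Cacna2d4* and *Cacnb3* were added on the higher side, where 18.4% of all genes lay, and no gene on the lower side, where 13.2% lay. The median log2 ratio over the 8 genes was -0.46, against 0.08 over all genes. None of the 8 had cells that did not overlap between the groups, as 0.0146% of all genes had.

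Between P30_WT IHCs and the same P14_WT IHCs, the comparison of ages, 0 of the 8 genes that passed the filter were past 4-fold, against 2.26% of all 12946 genes higher and 3.06% lower. *Cacnb3* came closest with a log2 ratio of -1.97 and was alone past 2-fold, where 8.83% of all genes were higher and 10.4% lower. It was -4.27 in the set of lower totals, -0.61 in that of higher totals and -3.32 without the highest cell of each group, so that single cells weighed on it. The median log2 ratio of the 8 genes was -0.47, against -0.03 over all genes, and 6 of the 8 had the lower mean at P30. Both comparisons share the P14_WT IHCs and are therefore not independent.

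**Figure D5:**
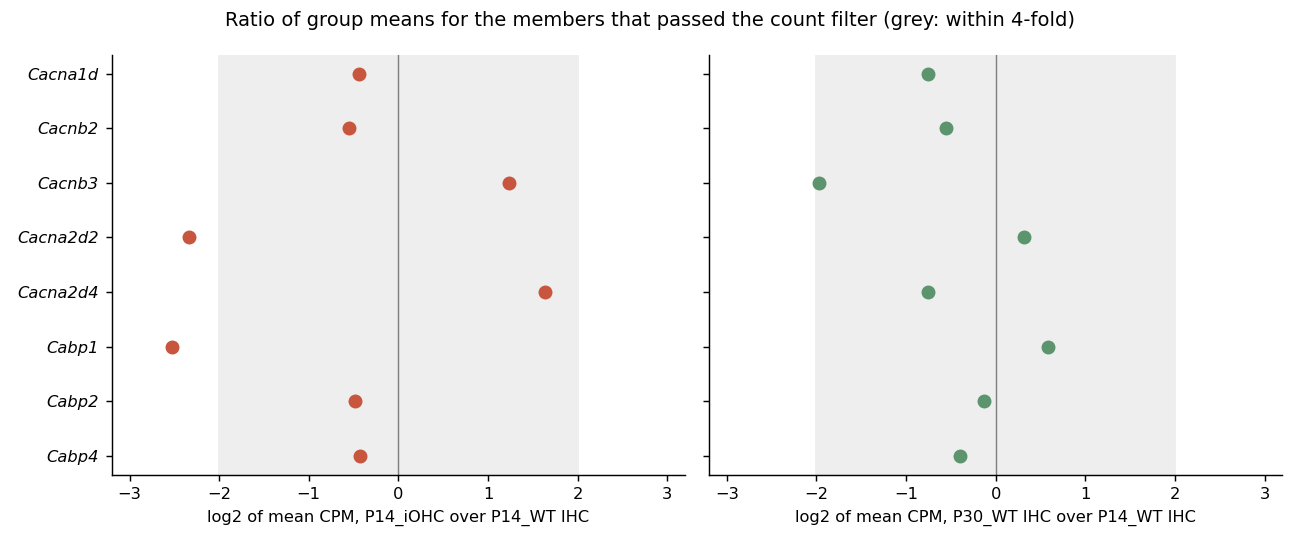
Log2 ratio of mean CPM for the 8 genes that passed the filter on counts, P14_iOHCs over P14_WT IHCs (left) and P30_WT IHCs over P14_WT IHCs (right), with 1 point per gene and the range within 4-fold in grey. *Cabp1* (-2.53) and *Cacna2d2* (-2.34) lie left of the grey range in the first panel, and no point lies outside it in the second.

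Of the other 19 genes with symbols of the calcium channel families (*Cacna1*, *Cacnb*, *Cacna2d* and *Cacng*), 2 passed the filter with the P14_iOHCs and 1 with the P30_WT IHCs. A symbol of these families does not make each a channel subunit. With the P14_iOHCs 1 was higher and 1 lower past 4-fold, where 8.74% and 5.12% of all genes lay. *Cacng5*, which encodes an auxiliary protein of AMPA-type glutamate receptors and had the highest mean TPM of the list, had no count in any P14_WT IHC and was detected in 20 of 46 P14_iOHCs (43.5%, 28.9% to 58.9%), with 72.0 CPM in the highest cell and 12.6 ± 22.2 CPM on average. Against 3 counts over the whole P14_WT IHC group, its mean was at least 3319-fold higher in the P14_iOHCs. It passed the filter through the P14_iOHCs alone. *Cacnb4*, the other gene past the filter, had 4.11 ± 8.93 CPM in the P14_WT IHCs, 0.984 ± 4.63 CPM in the P14_iOHCs (log2 ratio -2.06) and 12.7 ± 26.7 CPM in the P30_WT IHCs (1.63), with counts in 18, 5 and 19 cells. It was not past 4-fold in the P14_iOHCs with summed counts, with DESeq2 size factors, without cells over 3 median absolute deviations, without the 17 cells or in the set of higher totals.

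Regulators of the channel were taken from lists by function. Of the 4 RGK proteins, small GTPases that inhibit the channel, 2 passed the filter in each comparison and none was past 4-fold. *Rem1*, the highest of them per length, had 39.5 ± 43.7, 48.8 ± 65.3 and 40.6 ± 55.4 CPM in P14_WT IHCs, P14_iOHCs and P30_WT IHCs. Of the 3 STAC adaptors, which promote channel opening in muscle, none passed with the P14_iOHCs and 1 with the P30_WT IHCs, not past 4-fold. *Stac* itself was found in 4, 2 and 1 cells.

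Calmodulin, the partner that CaBPs compete with, was abundant. Of the 6 genes for calmodulin and CaBP relatives, 5 passed the filter with the P14_iOHCs, with 1 higher past 4-fold (8.74% of all genes were), and 4 passed with the P30_WT IHCs, none past 2-fold. *Calm2*, the highest of them per length, ran from 6030 to 27492 CPM in the P14_WT IHCs, from 1176 to 20359 CPM in the P14_iOHCs and from 5803 to 40017 CPM in the P30_WT IHCs. Its means of 18865 ± 4975, 6466 ± 3982 and 24323 ± 5285 CPM put 26 of the 46 P14_iOHCs below the lowest P14_WT IHC. *Calm3*, named after its values were seen, had 232 ± 90.2, 267 ± 118 and 225 ± 101 CPM. *Caln1*, a calneuron gene, was found in 1 of 55 P14_WT IHCs, 15 of 46 P14_iOHCs and 2 of 50 P30_WT IHCs, with a mean of 5.57 ± 19.6 CPM in the P14_iOHCs, at least 1468-fold above 3 counts over the P14_WT IHC group. It passed the filter through the P14_iOHCs alone, and 1 cell held 45.5% of its level there.

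Active zone proteins hold the channels at the ribbon. Of 9 genes, 8 passed the filter in each comparison. With the P14_iOHCs 2 were lower past 4-fold and 0 higher, against 5.12% and 8.74% of all genes, and in the P30_WT IHCs 0 were past 4-fold, against 3.06% lower and 2.26% higher. *Rims2*, which encodes a scaffold that binds the channel, ran from 8.92 to 505 CPM in the P14_WT IHCs with a median of 248, and from 0 to 223 CPM in the P14_iOHCs with a median of 5.18. All 46 P14_iOHCs lay below the median of the P14_WT IHCs, and the means of 258 ± 125 and 30.0 ± 51 CPM were 8.59-fold apart. *Otof*, which encodes the calcium sensor of IHC exocytosis and was the highest gene of the list per length, had 3657 ± 925, 430 ± 608 and 3704 ± 1028 CPM, and 44 of the 46 P14_iOHCs lay below the lowest P14_WT IHC. The other genes of the list that passed the filter, named after their values were seen, were not past 4-fold. Their log2 ratios for the P14_iOHCs were -1.86 for *Rimbp2*, -0.40 for *Erc1*, -0.22 for *Erc2*, 0.02 for *Ctbp2*, 0.16 for *Bsn* and 0.22 for *Pclo*. Beside the folds of 8.59 for *Rims2* and 8.51 for *Otof*, *Cacna1d* and *Cacnb2* had means 1.36-fold and 1.46-fold lower in the same cells.

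Across cells of 1 group the genes went together only loosely. Spearman's rho on log2(CPM + 1) between *Cacna1d* and *Cacnb2* was 0.35 in the 55 P14_WT IHCs, 0.06 in the 46 P14_iOHCs and 0.09 in the 50 P30_WT IHCs. Between *Cacna1d* and *Cabp2* it was 0.19, 0.20 and 0.03. *Cacna1d* had rho of 0.47, 0.32 and 0.10 with *Otof*. *Cabp2* had rho of 0.47, 0.04 and 0.61 with the total count of the cell, and of -0.08, -0.49 and -0.23 with the mean of the supporting-cell markers. Among the 3686 genes that at least 80% of cells had in each group, the 5 most like *Cacna1d*, by rho averaged over the 3 groups, were *Kcp* (0.37), *Upf2* (0.35), *Myo15* (0.35), *Eps8l2* (0.34) and *Rdh12* (0.32). *Cacnb2* had 0.17 and *Cabp2* 0.14 by the same measure. These values describe cells that share a preparation and differ in depth, and carry no test.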

How the data were processed

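Full-length cDNA of single cells was made with the Smart-Seq HT kit and sequenced, and 151 cells (55 P14_WT IHCs, 46 P14_iOHCs and 50 P30_WT IHCs) were analysed here. The table deposited by the authors holds raw counts of reads per gene symbol for 55291 genes. The submitters' processing notes list FastQC 0.11.9, Trimmomatic 0.39, HISAT2 2.1.0, StringTie 1.3.5 and HTSeq 0.10.0 with the mouse build GRCm38 (mm10). The annotation release, the use of strand and the treatment of reads with several matches are not given in the sources used here. Reads carry no molecular identifiers, so intervals and the limit of 3 counts cover counting error only.

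Groups were taken from the sample titles. CPM was computed as count over the total of the cell, and TPM with union exon lengths of GENCODE M21, which gave a length for 53292 genes. A group's level was the mean CPM over its cells, and groups were compared by the log2 ratio of means, for genes that reached 5 counts in 10 or more cells of the 2 groups. A ratio over 4-fold, the threshold of the study, counted as past the threshold. A group with at most 3 counts in all was set to 3 counts over its summed totals, which gives a lower bound. In ratios of medians, a median under the level of 3 counts over the median total was set to that level. As no label names an animal, a group was 1 sample and no test was made. Shares carry exact Clopper-Pearson 95% intervals. Relations across cells are Spearman's rho and were printed only for genes detected in at least 80% of cells. Thinning used a fixed seed (20221). No 2 libraries were identical. No doublet caller was run on the hand-picked cells.

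The 10 genes and all lists were chosen with earlier results of these data known. Named beside the 10 were genes of the listed channel families and regulators that were past 4-fold with a mean of at least 5 CPM, the gene of each list with the highest mean TPM, 5 genes most like *Cacna1d*, and *Tbx2*, *Slc17a8* and *Slc26a5*. The alternatives were TMM factors (edgeR 4.0.16) and size factors (DESeq2 1.42.0) in R 4.3.3, a total without mitochondrial genes and *Ocm*, summed counts, medians, other filters and thresholds, and sets of cells. Python 3.11.15 with numpy 2.4.6, pandas 2.3.3, scipy 1.17.1 and matplotlib 3.10.9 was used for the rest.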

Additional observations from a re-analysis of the deposited data

How the results depend on the processing

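No paired analysis was possible because the numbers in the titles only count the cells of a group and no test was made. Of the 8 genes that passed the filter, 2 were past 4-fold between P14_iOHCs and P14_WT IHCs, both lower, where 5.12% of all genes lay. The number was 4 by medians over cells (of 7 with a ratio, with 1 higher and 3 lower, where 10.5% and 16.8% of all genes lay). It was 4 past 2-fold, 2 on each side, where 18.4% of all genes were higher and 13.2% lower. It was 1 (*Cacna2d2*, lower) without the 17 cells rich in supporting-cell markers, where 7.83% of all genes were lower. In the set of lower totals it was 1 (*Cacna2d2*, lower), where 12.5% of all genes were lower. *Cacna2d2* stayed past 4-fold in 11 of 11 alternatives for its ratio. For the other channel genes, 2 in that comparison, the number was 0 by medians, 9 with no filter, 4 with a filter on mean CPM of at least 1, and 1 (*Cacng5*) with summed counts, with DESeq2 size factors, without cells over 3 median absolute deviations, without the 17 cells and in the set of higher totals. For the regulators, 3 in that comparison, it was 6 past 2-fold and 7 with no filter. Between P30_WT and P14_WT IHCs, 0 of the 8 genes that passed the filter were past 4-fold. The number was 2 by medians (both lower, of 7 with a ratio, where 19.8% of all genes were lower) and 1 (*Cacna2d1*, lower) with no filter. It was 1 (*Cacnb3*, lower) without the highest cell of each group, without the 2 cells of lowest total, in the set of lower totals and past 2-fold. Of all genes 5.19%, 3.11%, 7.34% and 10.4% were lower there, in the same order. The other channel genes, 0 there, gave 1 in the set of lower totals, 1 past 2-fold, 9 with no filter and 4 with the filter on mean CPM. The regulators, 0 there, gave 1 by medians, 1 in the set of lower totals, 1 past 2-fold, 3 with no filter and 2 with the filter on mean CPM. Of 90 alternatives for the 9 counts, 61 were within 1.5 times. The cause of the others was not tested, except that a filter or threshold changes which genes can count.

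Of 174 alternatives for the 16 ratios of the 10 genes, 4 moved a ratio by the SD between cells or more: by medians *Cabp1* (-7.14) and *Cacna2d2* (-5.15) in the P14_iOHCs and *Cabp4* (-4.91) at P30, and in the set of lower totals *Cacnb3* (-4.27) at P30. Another 4 had the other sign, all at P30 and none for a gene past 4-fold: *Cabp2* (0.16 with DESeq2 size factors and 0.02 in the set of higher totals), *Cabp4* (0.09 with DESeq2) and *Cacna2d2* (-0.12 in the set of higher totals). DESeq2 size factors moved the median log2 ratio of all genes from 0.08 to 0.19 for P14_iOHCs and from -0.03 to 0.30 for P30_WT IHCs. Without the 17 cells, 861 genes were higher and 1070 lower past 4-fold in the P14_iOHCs, against 1195 and 700 with them. The sets of lower and of higher totals were parted at a gap in the totals chosen after the data were seen, and the regulators were also added to these alternatives then. A set of low totals parted on the log scale held only 2 cells, both P14_WT IHCs, and gave no value. With 1 sample per group, the spread between animals is unknown.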
